A study of Mus musculus with 20 samples.

Results

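The comparison described here is that of Treg cells with CD4+Foxp3- T cells, both sorted from the mesenteric lymph nodes (mLNs) of wild-type (WT) mice. It rests on 6 of the 20 RNA sequencing libraries of the series, chosen by the labelled genotype and tissue, and the counts of all genes were compared between the 2 groups of 3 biological replicates. The mice were C57BL/6, 14 weeks old and carried Foxp3Cre, an allele in which a YFP-Cre fusion protein is made under control of the endogenous Foxp3 gene. Treg cells were sorted as CD4+YFP+ cells and the comparison group as CD4+YFP- cells, so both groups, Foxp3- cells included, came from animals with this allele. The other libraries were those of Tet2/3fl/flFoxp3Cre mice (DKO, in which Cre removes Tet2 and Tet3 from Foxp3-expressing cells; 3 of Treg and 3 of CD4+Foxp3- cells from mLNs) and 8 of pooled spleen and peripheral lymph nodes (pLNs). All 4 mLN groups shared 1 fit, so the DKO libraries set part of the estimated spread.

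Treg cells are CD4+ T cells that restrain immune responses, and Foxp3 is the X-linked transcription factor that specifies and maintains them. They depend on IL-2, which most of them do not make, bind it through a receptor with the high-affinity alpha chain CD25 (Il2ra) and signal through STAT5. Nodes draining the intestine hold Treg cells made in the thymus beside others induced in the periphery, and the remaining CD4+ cells include naive, memory and helper cells. The comparison is thus between a lineage and a mixture, and a difference in bulk RNA cannot tell fewer cells of a type from less RNA per cell.

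The levels of genes that define the cells went with the labels of the 2 sorts. The cells were sorted on YFP made under control of the Foxp3 gene, so a difference in Foxp3 was fixed by the sort. Foxp3 (chromosome X, 7156802 to 7172369 of NCBIM37, the mm9 assembly) was at 310.0, 299 and 326 CPM (the gene's counts scaled to library size after TMM normalization) in the Treg libraries and at 1.62, 1.35 and 1.4 CPM in the CD4+Foxp3- libraries. The groups did not overlap, and the log2 fold change was 7.74 ± 0.36 (SE; adjusted p = 1.10e-07, edgeR's quasi-likelihood test, as throughout). All 9 markers of Treg cells, Foxp3 among them, were higher in Treg cells, with summed levels of 2525 to 2710 CPM against 178 to 187 CPM. Of the 8 general T cell markers none passed the test in either direction, and their sums spanned 5563 to 6091 CPM in Treg and 5926 to 6228 CPM in CD4+Foxp3- cells. Over all genes tested, 6.91% were called higher in Treg cells and 3.14% lower by the limits given below. No call among 8 genes is near those shares. Cd3e, a chain of the T cell receptor complex, was at 654 CPM in Treg and 623 CPM in CD4+Foxp3- cells on average.

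Sums of markers of other cells differed between the groups, in both directions. The counts of members called can be set against the 6.91% of all genes called higher and the 3.14% called lower. B cell markers summed to 42.0 to 50.7 CPM in Treg and 10.1 to 11.7 CPM in CD4+Foxp3- cells. The gap lay in Cd79b (30.2 against 1.89 CPM) and Bank1 (9.70 against 4.54 CPM), 2 of 12 members, while Ms4a1 was below 0.03 CPM in both groups, Cr2 was at 0 in all 6 libraries and Pax5 at 0 in the 3 Treg libraries. Myeloid and dendritic markers summed to 144 to 189.6 CPM against 26.8 to 34.4 CPM, of which Cybb, a subunit of the NADPH oxidase, gave 153 and 17.7 CPM. Lyz2 was also higher and Itgam and Itgax were lower, 4 of 16 members called in all, and Cd14 and Clec9a were at 0 in both groups. Of these marker calls, those of Bank1 and Itgam were lost with any 1 WT library left out (adjusted p 0.0654 to 0.105 and 0.0512 to 0.0962) and that of Lyz2 without CD4+Foxp3- replicates 1 or 2 or Treg replicate 1 (up to 0.145) and with the replicate block (0.0587). NK cell markers went the other way, at 22.2 to 27.8 against 52.1 to 64.5 CPM, with 2 of 8 called, Klrd1 and Eomes, both lower in Treg cells. Plasma cell markers were at 14.5 to 19.2 against 41.9 to 45.7 CPM, with 1 of 6 called (Pou2af1, lower), and stromal and endothelial markers at 139 to 174 against 235 to 254 CPM, most of it Pecam1 (155 against 241 CPM), with Col3a1, Pdgfra and Kdr at 0 in both groups. Of the 9 stromal and endothelial markers tested 1 was higher in Treg cells, the collagen gene Col1a2 (1.61 against 0.0284 CPM), and 2 were lower, Pecam1 and Cdh5 (0.0602 against 0.539 CPM), of which 0 to 1 remained with 1 library left out, the call of Cdh5 being lost in each of those fits. These lists hold genes that T cells can express as well, and the part of other cells in the results was not tested.

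Depth ranged from 9998478 to 15449158 counted reads in the 6 libraries, at which 3 counts, the limit used for genes without reads, equal 0.203 to 0.299 CPM (a limit that covers counting error only). Over the 500 most variable genes, principal component 1 held 92.0% of the variance of the 6 libraries and separated the 2 cell types.

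The first question was which genes set Treg cells apart. Of the 16784 genes with at least 1 count, 1687 (10.1%) were called, meaning an adjusted p of at most 0.05 (Benjamini-Hochberg over all genes) and a fold change of at least 1.5. More genes were higher in Treg cells (1160, or 6.91%) than lower (527, or 3.14%). The difference was at least 4-fold for 440 of the higher genes (2.62% of those tested) and 140 of the lower (0.834%). In all 1687 the 3 Treg values lay on one side of the 3 CD4+Foxp3- values, as they did in 41.5% of all genes tested. With only the 6 WT libraries in the fit, 2544 genes were called, 1671 higher and 873 lower, so a gene below described as not called may have failed through the spread that the DKO libraries added. With the fold change of 1.5 as the null value of the test (glmTreat), 695 were called.

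**Figure D1:**
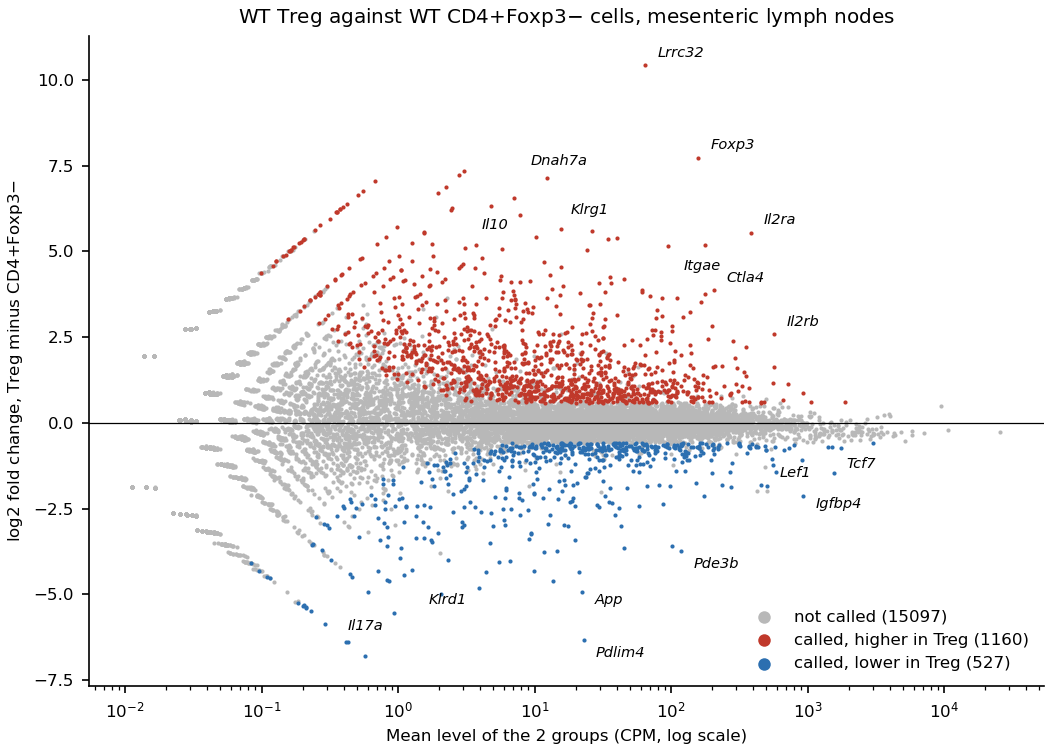
Each point is a gene: the x axis gives the mean of the WT Treg and WT CD4+Foxp3- levels (CPM, log scale) and the y axis the fitted log2 fold change, Treg minus CD4+Foxp3-. Red points are the 1160 genes called higher in Treg cells, blue points the 527 called lower and grey points the rest; Lrrc32 and Foxp3 lie at the top, and Pdlim4 lies lowest among the labelled genes.

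Ranked by fold change among called genes with at least 10 CPM in the higher group, Lrrc32 came first. It encodes GARP, the surface protein that holds latent TGF-beta on Treg cells, and was at 89.0, 143 and 151 CPM in Treg cells against 3 reads in all in the CD4+Foxp3- libraries. The ratio of the pooled counts was 1540, with an exact 95% counting interval of 527 to 7470. Foxp3 followed. Il2ra rose from 13.9, 16.6 and 18.2 to 703, 797 and 783 CPM (log2 fold change 5.55 ± 0.28, adjusted p = 1.32e-07). Klrg1, a lectin-like receptor of terminally differentiated lymphocytes, went from 0.766, 1.55 and 0.698 to 46.3, 55.7 and 52.7 CPM. None of these groups overlapped.

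Less familiar genes stood among them. Dnah7a, an axonemal dynein heavy chain, was at 22.4, 24.7 and 26.4 CPM in Treg cells and at most 0.270 CPM in CD4+Foxp3- cells (log2 fold change 7.15 ± 0.75, adjusted p = 4.82e-05), and its copy Dnah7b followed it at 4.19, 5.29 and 5.41 CPM against 2 reads in all. At most 1 alignment was kept for each read, so the split of reads between these copies is uncertain, and Dnah7b was added after its values had been seen. Matn2, a matrix protein, reached 32.4, 31.5 and 27.9 CPM from at most 0.681 CPM (5.65 ± 0.36, adjusted p = 7.21e-07). Sdc4, a heparan sulfate proteoglycan, rose by 5.04 ± 0.48 (adjusted p = 2.16e-05) and Rgs9, a regulator of G protein signalling, by 5.07 ± 0.66 (adjusted p = 2.41e-04). Gbp2b, an interferon-inducible GTPase with close paralogs, rose by 5.36 ± 0.43 (adjusted p = 5.04e-06). Rln3, encoding relaxin 3, went from 5 reads in all to 12.1, 16.0 and 14.1 CPM, a pooled ratio of 103 (interval 43.8 to 318), but its adjusted p of 0.0243 lay between 0.0466 and 0.0999 with 1 library left out and failed in 5 of those 6 fits (all except that without Treg replicate 1).

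At the other end stood Pdlim4, a PDZ-LIM protein of the actin cytoskeleton, at 42.6, 43.0 and 50 CPM in CD4+Foxp3- and 0.493, 0.662 and 0.492 CPM in Treg cells (log2 fold change -6.33 ± 0.55, adjusted p = 9.10e-06). App, the amyloid precursor protein, fell from 44.5, 43.7 and 41.5 to 1.31, 1.65 and 1.28 CPM (-4.92 ± 0.44, adjusted p = 1.26e-05). The phospholipid flippase Atp8b4 (-4.60), the gamma-glutamyltransferase Ggt5 (-4.36), the mitochondrial nucleoside diphosphate kinase Nme4 (-4.06) and the adhesion receptor Crtam (-4.02) were lower as well, each with replicates that did not overlap. Vipr1, a receptor for vasoactive intestinal peptide, was at 191, 188 and 187 CPM in CD4+Foxp3- and at 19.4, 12.1 and 15.6 CPM in Treg cells (-3.59 ± 0.45, adjusted p = 1.69e-04). Dntt, the template-independent polymerase of antigen receptor rearrangement, was at 18.6, 16.0 and 15.7 against 1.81, 1.16 and 1.77 CPM (-3.40 ± 0.44, adjusted p = 2.18e-04).

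Per length, on the TPM scale deposited beside the counts, other genes gave the largest gains. Srgn, the core protein of secretory granules, went from a mean of 616 to 1511 TPM and came first, followed by AW112010 (427 to 1200 TPM) and Ly6e (1082 to 1788 TPM, a call lost with any 1 WT library left out, adjusted p 0.0621 to 0.104). Izumo1r (folate receptor 4) went from 251 to 850.3 TPM, the histone variant H2afz from 286 to 866 TPM and Il2rb, the signalling beta chain of the IL-2 receptor, from 102 to 664 TPM. Foxp3 itself averaged 145 ± 9.33 TPM in Treg cells (SD, n = 3) and 0.620 ± 0.0449 TPM in CD4+Foxp3- cells. The largest losses of TPM among called genes were in Rplp1 (13001 to 9335), Rps29 (9428 to 6144), Tcf7 (1728 to 688), Tmsb10 (3105 to 2091) and Igfbp4 (1219 to 304). Rplp1 and Rps29 are ribosomal proteins and changed by fold changes near the minimum (log2 -0.60 and -0.74); Rplp1 fell under that minimum without CD4+Foxp3- replicate 1 (-0.58) or Treg replicate 3 (-0.57).

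**Figure D2:**
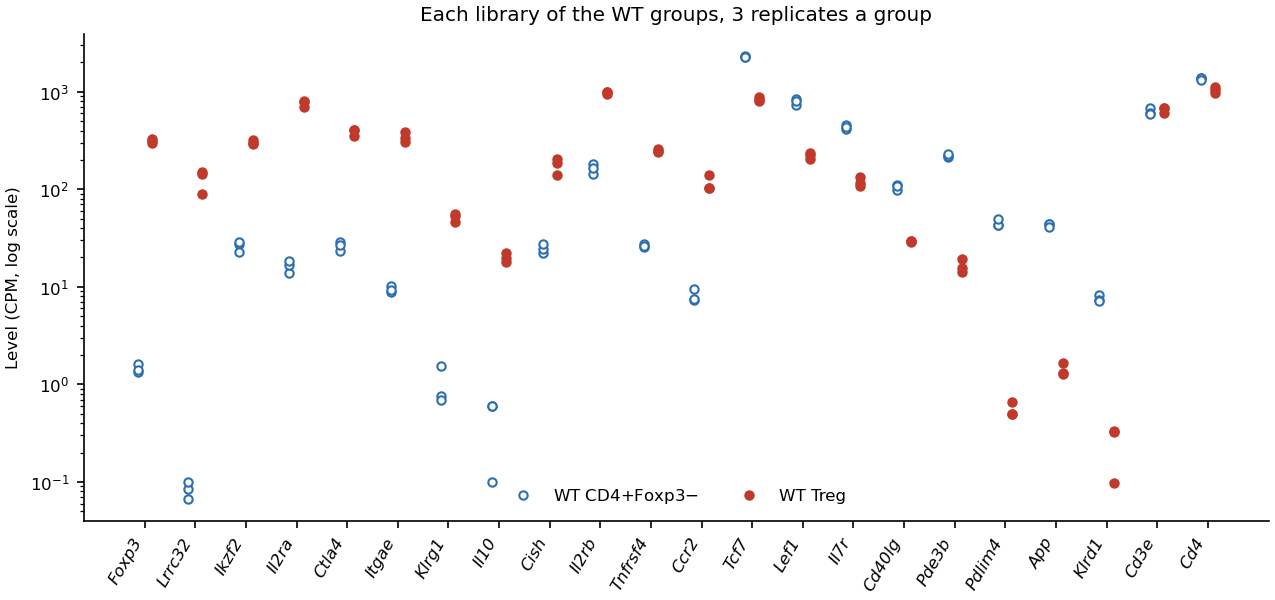
The level of 22 genes (x axis) in each WT library of the mLNs is plotted in CPM on a log y axis, with open blue circles for the 3 CD4+Foxp3- replicates and filled red circles for the 3 Treg replicates. From Foxp3 to Ccr2 the Treg circles lie above all CD4+Foxp3- circles, from Tcf7 to Klrd1 below them, and for Cd3e the 2 sets overlap.

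The genes were then read by function. The lists overlap in members, and each count of the main fit can be set against the 6.91% of all genes that were higher and the 3.14% that were lower. The median log2 fold change over all genes was 0.00. Counts from other fits go with other totals over all genes. With only the WT libraries 1671 genes were higher and 873 lower, and with the replicate block 1200 and 575. With 1 library left out, 764 to 888 were higher and 344 to 391 lower. Suppressor and effector molecules of Treg cells held the highest median of the 25 lists, 3.41, with 18 of 21 members higher and 1 lower. Ctla4, the receptor that competes with CD28 for its ligands, rose from 23.2, 29.0 and 27.0 to 351, 407 and 402 CPM (3.87 ± 0.35, adjusted p = 1.25e-05). Both ectoenzymes that turn extracellular ATP into adenosine were higher: Entpd1 (CD39) at 69.5, 71.7 and 63.6 against at most 3.92 CPM, and Nt5e (CD73) at 447, 529 and 455 against 76.5, 106 and 88.0 CPM. Among secreted products, Il10 was at 17.8, 19.9 and 22.2 CPM against 0.596, 0.608 and 0.0997 CPM (5.42 ± 1.01, adjusted p = 0.00293). Ebi3, a subunit of IL-27 and IL-35, rose by 3.41 ± 0.59 (adjusted p = 0.00168), Fgl2 by 4.21 ± 0.69 (adjusted p = 0.00122) and the epidermal growth factor family member Areg went from 4 reads in all to 1.56, 2.07 and 2.75 CPM, a pooled ratio of 19.1 (interval 7.16 to 72.1). Itgb8, the integrin chain that activates latent TGF-beta, rose by 3.28 ± 0.35 (adjusted p = 5.62e-05).

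The cytolytic genes of this list parted. Gzmb, granzyme B, was at 21.0, 8.44 and 11.2 CPM against 1.79, 0.743 and 1.20 CPM (3.46 ± 0.56, adjusted p = 0.00115). Prf1, perforin, which opens the way for granzymes, was lower, at 14.5, 10.3 and 10.4 against 61.9, 55.4 and 57.6 CPM (-2.31 ± 0.44, adjusted p = 0.00325). Neither pair of groups overlapped. Tgfb1 (176 to 226 CPM, adjusted p = 0.178) and Cd274, the ligand PD-L1 (56.5 to 78.8 CPM, adjusted p = 0.0120, but under 1.5-fold) were the 2 members not called.

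Of 26 transcription factors linked to Treg cells 11 were higher and 1 lower. Helios (Ikzf2) rose from 27.4, 29.0 and 22.5 to 293, 300.4 and 321 CPM (3.53 ± 0.19, adjusted p = 2.29e-07) and Eos (Ikzf4) from 7.23, 7.70 and 9.68 to 68.0, 76.7 and 71.4 CPM (3.14 ± 0.21, adjusted p = 9.34e-07). Factors of effector Treg cells rose with them: Prdm1 (Blimp-1) by 2.06 ± 0.32 (adjusted p = 7.86e-04), Maf by 2.04 ± 0.39 (adjusted p = 0.00360) and Irf4 by 1.08 ± 0.23 (adjusted p = 0.00724). Runx3 was the lower member, at 46.0, 50.4 and 45.3 against 89.7, 92.3 and 87.5 CPM (-0.93 ± 0.11, adjusted p = 8.46e-05). Many partners of Foxp3 were at like levels: Runx1 at 132 and 135 CPM, its partner Cbfb at 267 and 245 CPM, and Nfatc2 at 129.9 and 133 CPM (CD4+Foxp3- first; all adjusted p over 0.4).

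In the IL-2 axis, Il2rb, beside Il2ra, rose from 142, 181 and 166 to 958, 986 and 998 CPM (2.59 ± 0.26, adjusted p = 2.91e-05), whereas the shared gamma chain Il2rg, at 985 CPM in CD4+Foxp3- and 950.0 CPM in Treg cells, was not called (adjusted p = 0.793). Neither Stat5a (111 to 138 CPM) nor Stat5b (276 to 307 CPM) reached a 1.5-fold change. Of 21 STAT, SOCS and IL-2 response genes 4 were higher and 1 lower, the kinase Pim2 (-0.82, a call lost with any 1 WT library left out, adjusted p 0.0856 to 0.131). The 2 largest gains were those of the feedback inhibitors Socs2, from 1.28, 1.82 and 2.59 to 69.4, 85.6 and 80.5 CPM (5.38 ± 0.33, adjusted p = 6.04e-07) and Cish, from 22.4, 24.4 and 27.4 to 141, 186 and 205 CPM (2.84 ± 0.20, adjusted p = 1.90e-06). Pim1 and Socs5 rose by 1.24 ± 0.15 and 0.98 ± 0.18. The receptor for IL-7, the cytokine of resting T cells, went the other way, with Il7r at 134, 109 and 115 against 456, 416 and 431 CPM (-1.86 ± 0.28, adjusted p = 6.81e-04).

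Since STAT5 acts through a short palindrome, the letters TTCNNNGAA were searched on both strands in the window of 250 bases before to 50 bases after each RefSeq start (GRCm38.p6). A window was at hand for 12370 of the 16784 genes, of which 8.52% held the letters in at least 1 window. The share was 9.95% of 864 genes higher in Treg cells and 7.07% of 396 lower ones. The following stretches are a selection of the matches. They belong to genes of the IL-2 axis, to Foxp3 and to 2 of the TNF receptors described in this report. Each is given 5′ to 3′ on the strand of its gene with the matching letters in capitals.
Cish (higher), chr9:107296649-107296677, plus strand: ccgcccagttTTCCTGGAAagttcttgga
Foxp3 (higher), chrX:7580334-7580362, plus strand: gagctctgttTTCCAAGAAcgggcattag
Tnfrsf18 (higher), chr4:156026213-156026241, plus strand: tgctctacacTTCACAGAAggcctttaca
Tnfrsf9 (higher), chr4:150927853-150927881, plus strand: caacagctgaTTCCAAGAAacccttcaga
Il7r (lower), chr15:9530000-9530028, minus strand: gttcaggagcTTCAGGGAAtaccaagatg
The match in Cish begins at the annotated start itself and a second one follows at position 11, while those in Foxp3, Tnfrsf18, Tnfrsf9 and Il7r begin at positions -139, -99, -136 and -142 from the start. Il7r, lower in Treg cells, held the letters as well, and a match of letters is not a binding site. Other list members also held them, such as Tnfrsf1b, Ccr6 and Gzmb (higher) and Il12rb2 and Nsg2 (lower). In the IL-2 axis no match was found for Il2ra or Pim1, and no window was at hand for Socs2 and Il2rb. The forkhead letters GTAAACA stood in 3.14% of all genes with a window, 4.86% of higher and 6.06% of lower genes, and the TCF/LEF letters CTTTGAT in 3.27%, 2.31% and 3.79%.

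Receptors and ligands of the TNF family, many of which act in costimulation, were higher in 8 of 20 members and lower in 2, and the higher ones included the ligands Tnfsf10 and Lta. The call of Tnfsf10 failed in all fits without 1 WT library but that without Treg replicate 3 (adjusted p up to 0.0813) and that of Lta in all but that without Treg replicate 1 (up to 0.109). Tnfrsf4 (OX40) rose from 25.8, 27.5 and 26.4 to 249, 241 and 259.7 CPM (3.23 ± 0.34, adjusted p = 5.21e-05). Tnfrsf1b (TNFR2) reached 563, 598 and 583 CPM (2.21 ± 0.19, adjusted p = 9.10e-06), Tnfrsf9 (4-1BB) rose by 1.99 ± 0.24 and Tnfrsf18 (GITR) by 1.70 ± 0.21. The lower members were ligands as well: Cd40lg, by which helper T cells license B and dendritic cells, at 28.8, 29.6 and 29.2 against 98.1, 109.6 and 108 CPM (-1.85 ± 0.17, adjusted p = 1.68e-05), and Fasl (-1.12 ± 0.34, adjusted p = 0.0395, which rose to between 0.0592 and 0.154 with any 1 WT library left out). Without 1 library the higher members numbered 5 to 7.

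Checkpoint and costimulatory receptors held 8 higher members of 21 and no lower one. Tigit rose from 17.6, 19.0 and 12.9 to 164, 131 and 121 CPM (3.06 ± 0.50, adjusted p = 0.00117), Lag3 from 50.6, 73.3 and 49.3 to 347, 332 and 264 CPM (2.44 ± 0.53, adjusted p = 0.00732) and Havcr2 (TIM-3) from at most 0.511 to 10.9, 6.12 and 6.98 CPM (4.80 ± 0.81, adjusted p = 0.00144). Icos rose by 1.67 ± 0.39 (adjusted p = 0.0111, and 0.0513 without CD4+Foxp3- replicate 1). Cd28, which gives the first costimulatory signal, was at 389 CPM in CD4+Foxp3- and 388 CPM in Treg cells.

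Of 29 cytokine receptors 10 were higher and 4 lower (2 to 3 lower with 1 library left out). The IL-33 receptor Il1rl1 (ST2) rose from 2.47, 3.78 and 2.39 to 39.1, 41.2 and 40.5 CPM (3.78 ± 0.45, adjusted p = 1.30e-04) and the decoy IL-1 receptor Il1r2 from 6.04, 5.81 and 5.19 to 55.6, 47.0 and 39.4 CPM (3.05 ± 0.63, adjusted p = 0.00567). The 3 TGF-beta receptors parted: Tgfbr1 rose from 34.5, 41.7 and 44.3 to 158, 171 and 189.6 CPM (2.1 ± 0.14, adjusted p = 1.51e-06) and the co-receptor Tgfbr3 fell from 142, 148 and 148 to 31.5, 27.9 and 25.8 CPM (-2.36 ± 0.38, adjusted p = 0.00102). Tgfbr2, at 673 CPM in CD4+Foxp3- and 399 CPM in Treg cells, was not called (adjusted p = 0.0604), but it was with the replicate number as a block (adjusted p = 0.00954).

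Genes of homing and adhesion were higher in 15 of 32 and lower in 3 (0 to 1 lower with 1 library left out). Itgae (CD103), the integrin chain that binds epithelial E-cadherin, rose from 10.1, 8.78 and 9.18 to 332, 389 and 308 CPM (5.20 ± 0.50, adjusted p = 2.28e-05). Receptors for the intestine were among them: Ccr9 rose from 22.7, 30.7 and 24.3 to 95.8, 115 and 99 CPM (1.99 ± 0.36, adjusted p = 0.00231) and Gpr15 from 0.596, 0.810 and 1.20 to 17.9, 14.0 and 12.9 CPM (4.11 ± 0.65, adjusted p = 9.20e-04). Of the inflammatory chemokine receptors, Ccr2 rose from 7.40, 9.45 and 7.58 to 139.7, 102 and 103 CPM (3.81 ± 0.41, adjusted p = 5.76e-05), Ccr4 by 2.33 ± 0.35 and Ccr6 by 2.48 ± 0.50. The receptors that keep T cells circulating through nodes had smaller differences. Ccr7 changed by -0.80 ± 0.24 (adjusted p = 0.0411, and 0.0684 to 0.144 with any 1 WT library left out) and S1pr1 by -0.78 ± 0.20 (adjusted p = 0.0194, up to 0.0895, lost in 4 of 6 such fits). Lost for S1pr1 were the fits without CD4+Foxp3- replicates 1 or 3 and those without Treg replicates 2 or 3.

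Naive and conventional T cell genes had the lowest median of the 25 lists, -0.80, with 17 of 28 members lower and 1 higher (11 to 14 lower with 1 library left out). Tcf7 (TCF-1), a factor of naive and memory T cells, fell from 2289, 2329 and 2259 to 890.2, 816 and 812 CPM (-1.45 ± 0.07, adjusted p = 1.32e-07) and its relative Lef1 from 836, 727 and 797 to 227, 202 and 234 CPM (-1.83 ± 0.29, adjusted p = 0.00105). The chromatin organizer Satb1 fell by 1.42 ± 0.19 on the log2 scale (adjusted p = 2.84e-04). Pde3b, a phosphodiesterase that Foxp3 is known to repress, went from 212, 219 and 229 to 19.3, 14.3 and 15.7 CPM (-3.74 ± 0.18, adjusted p = 1.10e-07), and Dapl1 from 93.9, 78.1 and 79.3 to 6.82, 5.95 and 7.08 CPM (-3.66 ± 0.56, adjusted p = 7.13e-04). Igfbp4 changed by -2.12 ± 0.48 (adjusted p = 0.00960, and 0.0520 without Treg replicate 2). The IL-2 gene itself, Il2, was low, at 0.888 CPM in CD4+Foxp3- and 0.148 CPM in Treg cells (adjusted p = 0.0552).

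Of 33 genes of proximal T cell receptor signalling 6 were lower and 1 higher. Themis, a regulator of signalling in developing T cells, fell from 301, 306 and 270.0 to 117, 98.9 and 101 CPM (-1.47 ± 0.28, adjusted p = 0.00360). The phosphatase Ubash3b, which tunes this pathway down, rose by 0.84 ± 0.13 (adjusted p = 0.00102). Immediate early genes, induced within minutes of stimulation, were higher in 2 of 26 members and lower in 4, with a median of 0.01; 1 to 2 were lower with 1 library left out and 6 with only the WT libraries in the fit. Dusp4, a phosphatase of MAP kinases, rose from 4.51, 3.85 and 4.59 to 42.6, 38.5 and 58.7 CPM (3.43 ± 0.21, adjusted p = 5.90e-07) and Rgs1 by 3.10 ± 0.29 (adjusted p = 1.52e-05), while Nr4a1, a reporter of recent receptor signals, was at 103 CPM in Treg and 86.6 CPM in CD4+Foxp3- cells (adjusted p = 0.259).

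Of 10 genes that respond to the handling of RNA and cells, 1 was lower in Treg cells (Neat1, -0.72) and none higher, whereas 5 were lower with only the WT libraries in the fit and 4 with the replicate number as a block: Neat1, Dnajb1, Hspa1a and Hspa1b. Hspa1a was at 843, 1012 and 191 CPM in CD4+Foxp3- replicates 1 to 3 and at 194, 269 and 47.3 CPM in Treg replicates 1 to 3. Replicate 3 was the lowest in both cell types and the 2 groups overlapped, so the gene was not called (log2 fold change -2.0 ± 1.54, adjusted p = 0.465). Within each number, however, Treg cells were lower by nearly the same amount, with log2 differences of -2.12, -1.91 and -2.01, and with the number as a block the adjusted p was 1.26e-05. The near-identical copy Hspa1b gave -2.12, -1.93 and -1.87 (adjusted p = 1.00e-04 with the block and 0.449 without), while Fos gave -0.69, -0.31 and -0.34 (0.0476 and 0.512, under the 1.5-fold minimum in both fits). Hspa8, the constitutive member of the family, was at 2638 CPM in Treg and 2664 CPM in CD4+Foxp3- cells. The part of handling in these values was not tested.

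Helper subset genes were read by subset. Of 12 Th17 genes 4 were higher and 2 lower (1 lower with 1 library left out): among the higher were the factors Rora (1.4 ± 0.25) and Ahr (2.80 ± 0.28) and the receptor Ccr6. The cytokine Il17a was at 1.96, 0.945 and 2.59 CPM in CD4+Foxp3- cells and at 1 read in all in Treg cells, a pooled ratio of 59.3 (interval 10.3 to 2378). Of 15 Th1 genes 3 were higher, among them Hopx (2.71 ± 0.15, adjusted p = 2.52e-07), and 5 lower, led by Eomes, which fell from 35.3, 27.4 and 24.3 to 3.45, 3.23 and 4.33 CPM (-2.99 ± 0.48, adjusted p = 0.00102). With 1 library left out 2 to 4 were lower. Tbx21 (T-bet), at 8.20 CPM in CD4+Foxp3- and 4.96 CPM in Treg cells, was not called (adjusted p = 0.125). Of 10 Th2 genes 4 were higher and none lower (2 to 4 higher with 1 library left out). Gata3 was at 90.4, 90.3 and 89.7 against 52.4, 58.9 and 59.8 CPM (0.66 ± 0.16, adjusted p = 0.0129, and 0.0601 without CD4+Foxp3- replicate 1). Of 18 follicular helper genes 4 were higher and 1 lower (2 to 4 and 0 with 1 library left out, 8 and 2 with only the WT libraries), and neither Bcl6 (36.2 to 27.7 CPM, adjusted p = 0.30) nor Cxcr5 (60.2 to 112 CPM, adjusted p = 0.0674) was among them.

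Proliferation genes were higher in 16 of 30 members and lower in none, with a median of 0.87 (12 to 16 higher with 1 library left out). Top2a, a topoisomerase of dividing cells, rose from 39.2, 46.6 and 46.5 to 72.9, 88.7 and 110.5 CPM (1.04 ± 0.15, adjusted p = 6.16e-04), Ccnb1 (cyclin B1) by 1.45 ± 0.24 (adjusted p = 0.00130) and Rrm2 by 1.10 ± 0.15 (adjusted p = 2.84e-04). The replication factors Pcna (214 to 239 CPM) and Mcm2 (117 to 109 CPM) were not called. Mki67, at 12, 20.3 and 22.4 against 7.49, 9.79 and 8.58 CPM (1.07 ± 0.25, adjusted p = 0.0119), lost its call without CD4+Foxp3- replicate 1 or Treg replicates 2 or 3 (adjusted p up to 0.0615). The cell cycle inhibitor Cdkn1a rose by 2.28 ± 0.36 (adjusted p = 8.42e-04).

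Of 18 S100, annexin and cytoskeletal genes 6 were higher, Capg (2.82 ± 0.19, adjusted p = 1.51e-06) and S100a4 (2.16 ± 0.22, adjusted p = 3.97e-05) most of all, and 1 lower. With 1 library left out 3 to 4 of them were higher, and with only the WT libraries in the fit 9. Of 15 BCL2 family genes 5 were higher (3 to 4 with 1 library left out), among them Pmaip1 (1.97 ± 0.43, adjusted p = 0.00744). Glycolysis genes held 5 higher of 21 (3 to 5 with 1 library left out), including the glucose transporter Slc2a3 (1.13 ± 0.18, adjusted p = 9.71e-04), while Gapdh, Pkm and Ldha were not called. Hif1a, a regulator of that pathway, was at 499, 508 and 493 against 241, 262 and 235 CPM (1.02 ± 0.31, adjusted p = 0.0403), a call that was lost with any 1 WT library left out (adjusted p 0.0941 to 0.121) and with the block (0.0512). Of 16 NF-kB subunits and inhibitors 1 was higher (0 to 1 with 1 library left out), and of 13 enzymes of DNA methylation and demethylation 1, Uhrf1 (0.86 ± 0.14, adjusted p = 0.00114). Tet2 and Tet3, the genes deleted in the other mice of the series, were at 10.5 and 10.5 CPM and at 119 and 77.9 CPM in CD4+Foxp3- and Treg cells (adjusted p = 1.0 and 0.0707). None of the 13 was lower, but 2 were with the replicate block, Tet1 (-1.42, adjusted p = 0.0241, against 0.0587 without it) and Tet3 (adjusted p = 0.00107), and 2 with only the WT libraries in the fit. Of 16 phosphodiesterase and cAMP genes 4 were higher and 3 lower (2 to 3 higher with 1 library left out). Of 22 secreted cytokines 5 were higher and 2 lower, but 6 and 8 with only the WT libraries in the fit, and 3 to 4 and 1 to 2 with 1 library left out.

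MHC class II genes, which mouse T cells hardly make, were divided too. H2-Aa was at 10.1, 4.46 and 6.18 CPM in CD4+Foxp3- and at 1.48, 0.827 and 1.08 CPM in Treg cells (-2.60 ± 0.40, adjusted p = 7.19e-04), H2-Eb1 changed alike (-1.93 ± 0.34, adjusted p = 0.00212), and 3 of 8 members were lower in all. H2-Oa and the invariant chain Cd74 were higher (1.09 ± 0.27 and 1.4 ± 0.37, adjusted p = 0.0168 and 0.0213); that of H2-Oa failed in 4 of 6 fits without 1 WT library (all but those without Treg replicates 1 or 3, adjusted p up to 0.0705) and that of Cd74 in 5 (all but that without CD4+Foxp3- replicate 1, up to 0.0956). The sums of B cell and myeloid markers given above were higher in Treg cells, opposite to H2-Aa; their part in these values was not tested.

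**Figure D3:**
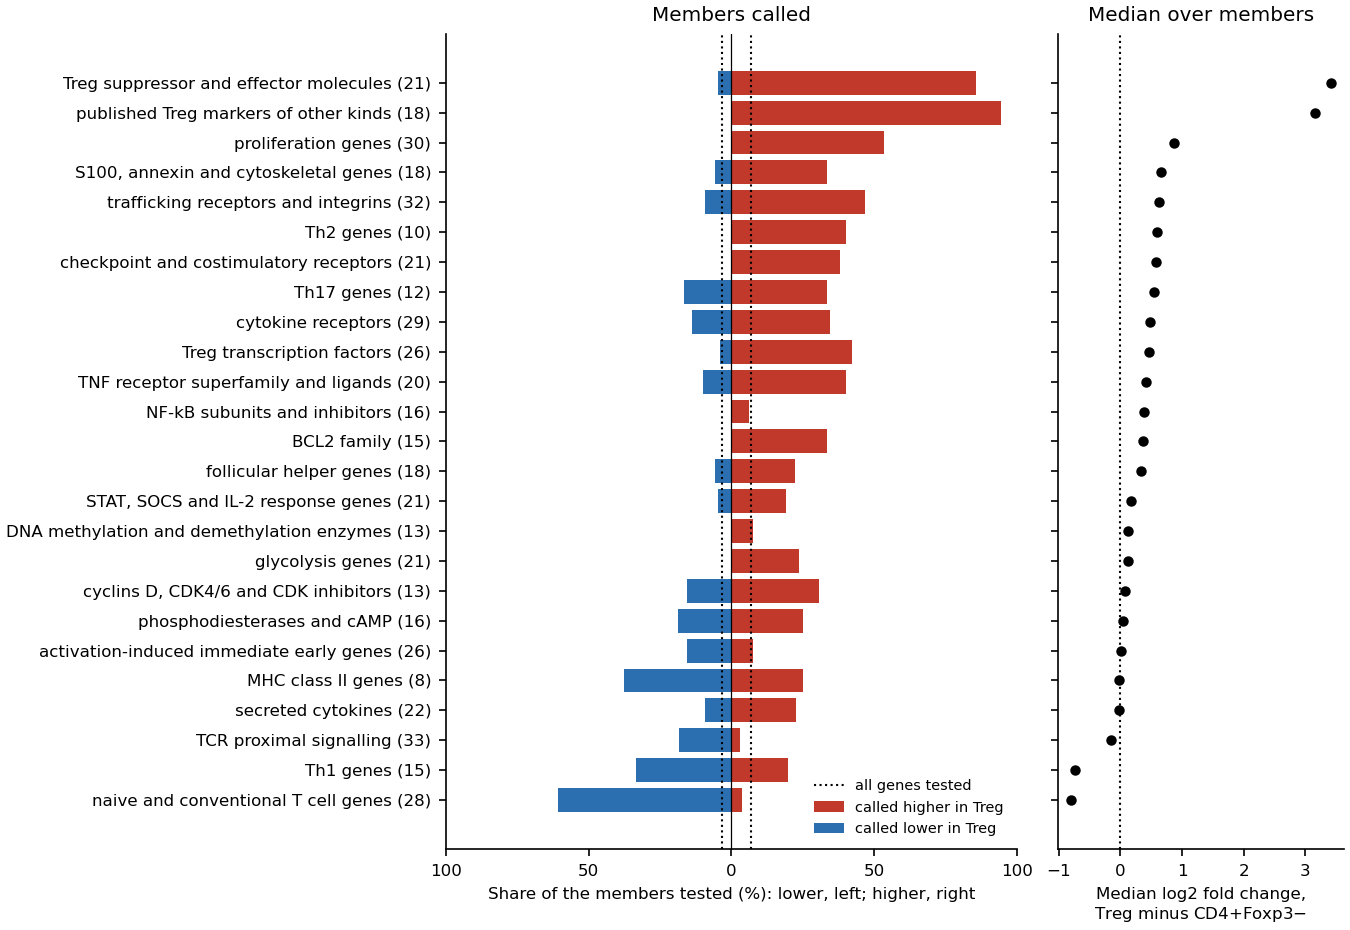
For each of the 25 gene lists (number of members tested in brackets), the bars on the left give the percentage of members called higher (red, right of 0) or lower (blue, left of 0) in WT Treg cells, with dotted lines at the 6.91% and 3.14% of all genes. The points on the right give the median log2 fold change over members: 3.41 for suppressor and effector molecules at the top and -0.80 for naive and conventional T cell genes at the bottom.

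The last question was how far the mLN differences held in another tissue. The same comparison in pooled spleen and pLNs (2 replicates a group, other libraries of mice of the same age and genotype) called 654 of 16357 genes (4%), 406 higher and 248 lower. Over 15160 genes tested in both tables, 1580 of 1636 mLN calls (96.6%) had the same sign there, as had 72.6% of all these genes. In 542 the call was shared, 359 higher and 183 lower, which is 33.1% of the mLN calls and 83.5% of the 649 spleen and pLN calls. With the replicate number as a block, 321 were shared. Leaving out any 1 of the 4 WT spleen and pLN libraries brought the calls there to 144 to 198 and the shared ones to 133 to 183. Foxp3 was at 165 and 153 CPM against 0.684 and 0.563 CPM, a log2 fold change of 7.97 against 7.74 in mLNs. Pdlim4, Pde3b, Tcf7 and Lef1 changed by -8.64, -4.54, -1.41 and -1.71 there. Il10 was at 3.15 and 5.85 CPM in Treg cells of spleen and pLNs against 1.44 and 2.57 CPM in CD4+Foxp3- cells, a log2 fold change of 1.17 that was not called. None of the 30 proliferation genes was called in spleen and pLNs, where 2.48% of all genes were higher and 1.52% lower, but 15 of the 16 called in mLNs had the same sign there. Of the 28 naive genes 14 were lower in spleen and pLNs.

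A difference between the tissues was tested in a joint fit of both count tables, a test added after the data had been seen. Of 15340 genes, 8 (0.0522%) passed, and all 8 had a more positive Treg minus CD4+Foxp3- difference in mLNs. Tissue and experiment cannot be told apart here, and the count depended on the fit: it was 709 with the 4 WT groups alone (604 more positive and 105 more negative in mLNs), 28 with DESeq2 (27 and 1), 5 with a stricter filter and 0 to 2 with 1 WT library left out, the 0 being the fit without spleen and pLN Treg replicate 1. Plac8, a protein of effector and memory lymphocytes, had the lowest adjusted p, with a difference of 3.87 ± 0.42 (adjusted p = 0.00129): it went from 5.28, 9.05 and 6.28 to 28.4, 36.9 and 26.6 CPM in mLNs and from 22.3 and 17.1 to 5.23 and 6.75 CPM in spleen and pLNs. For Ccr9 the difference was 3.84 ± 0.61 (adjusted p = 0.0366), as it fell from 36.5 and 21.9 to 8.53 and 7.73 CPM in spleen and pLNs. In Cxcr6, a receptor of tissue-resident T cells, the gap lay in CD4+Foxp3- cells, at 351 and 249 CPM in spleen and pLNs against 28.0, 45.5 and 41.2 CPM in mLNs, with 34.0 and 34.1 against 60.8, 58.4 and 51.1 CPM in Treg cells (3.71 ± 0.59, adjusted p = 0.0366). Ccr2 (3.62 ± 0.61) and S100a4 (1.75 ± 0.30, both adjusted p = 0.0413) were likewise higher in the CD4+Foxp3- cells of spleen and pLNs than of mLNs, at 67.1 and 53.1 CPM and 119 and 127 CPM against at most 9.45 and 12.7 CPM. Lztfl1 (1.38 ± 0.19, adjusted p = 0.00992), Ffar2 (4.71 ± 0.78) and Emp1 (4.11 ± 0.70, both adjusted p = 0.0413) were the others.

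Opposite directions were called for 4 genes, namely Plac8, Ccr9, Kctd12 and Mmp9. Mmp9, a matrix metalloproteinase, was at 19.7, 17.9 and 14.4 against 1.11, 2.36 and 2.09 CPM in mLNs and at 7.61 and 8.98 against 55.8 and 28.1 CPM in spleen and pLNs. The joint test gave 5.55 ± 1.16 for Mmp9 (adjusted p = 0.158) and 2.07 ± 0.38 for Kctd12 (adjusted p = 0.0847). In mLNs alone, the call of Mmp9 (adjusted p = 0.0199) was lost in 5 of the 6 fits without 1 WT library, all but that without Treg replicate 3 (up to 0.0835), and that of Kctd12 (0.0102) without CD4+Foxp3- replicate 1 (0.0543).

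**Figure D4:**
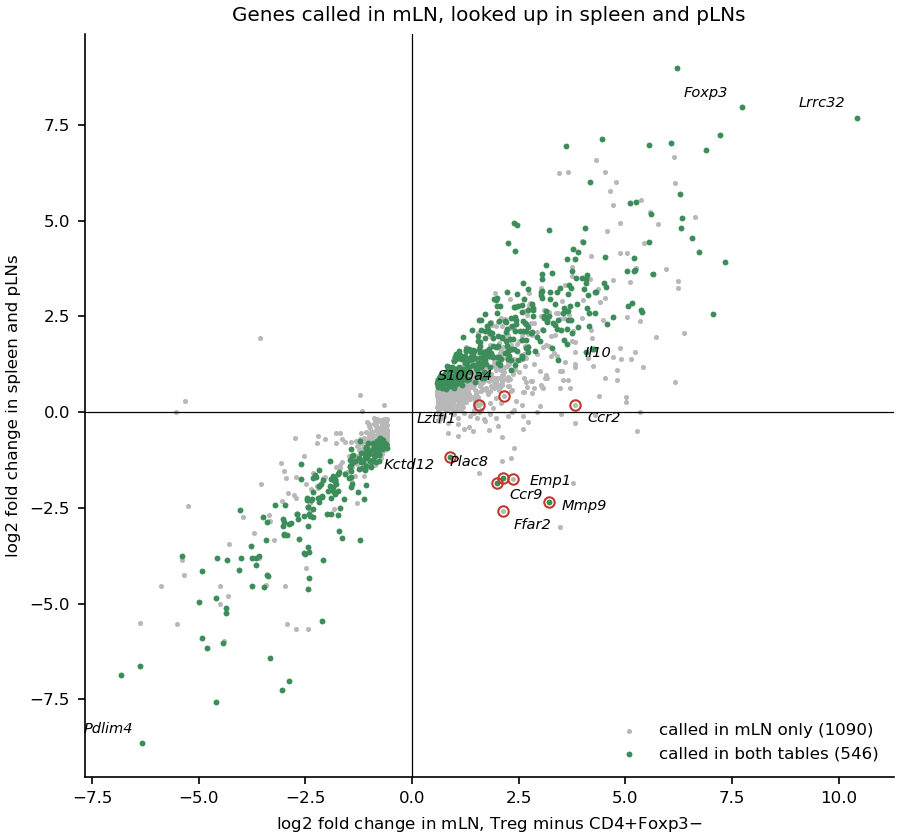
Each point is 1 of the 1636 genes called in mLNs and tested in both tables, with the log2 fold change (Treg minus CD4+Foxp3-) in mLNs on the x axis and in spleen and pLNs on the y axis; green points were called in both, grey points in mLNs alone. Most lie at the lower left and the upper right, where the signs are the same. Red rings mark the plotted genes of the tissue difference and those called in opposite directions. Cxcr6 was not called in mLNs and is not plotted.

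**Figure D5:**
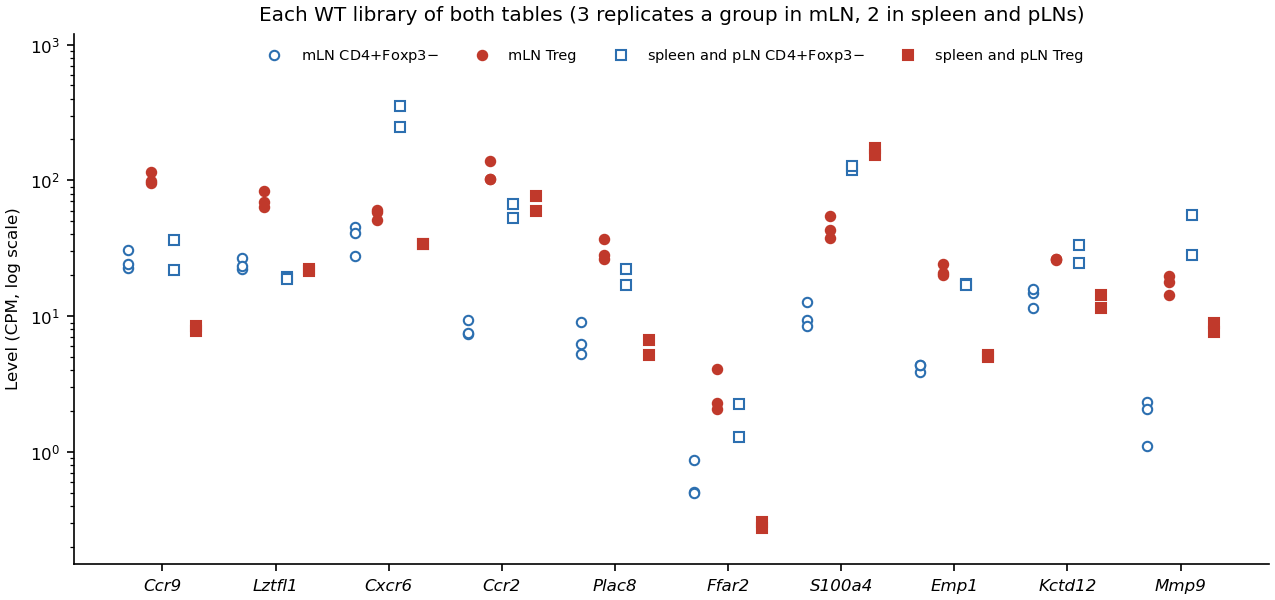
The level of 10 genes (x axis) in each WT library, in CPM on a log y axis: circles are mLN and squares spleen and pLN libraries, open blue for CD4+Foxp3- and filled red for Treg cells. For Ccr9, Cxcr6, Plac8, Emp1, Kctd12 and Mmp9 the order of the 2 cell types turns between tissues, and for Ccr2 and S100a4 the CD4+Foxp3- squares lie far above the CD4+Foxp3- circles.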

How the data were processed

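RNA was sequenced from CD4+YFP+ (Treg) and CD4+YFP- cells sorted by flow cytometry, with stranded mRNA libraries and single-end reads. The authors mapped reads to mm9 with TopHat2 2.1.1, which reported no more than 1 placement of a read, and assigned them by strand to RefSeq genes with featureCounts (Subread 1.4.3-p1). The deposited gene counts were tested, and the deposited TPM values, whose derivation is not given in the sources used here, served to compare levels between genes. No column was left without a sample (0).

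The counts of the 12 mLN libraries were fitted with 4 group means in edgeR 4.0.16 (R 4.3.3; TMM, glmQLFit, glmQLFTest) after removing genes without a count, with Benjamini-Hochberg adjustment and the study's limits of 1.5-fold and 0.05. CPM values are scaled by TMM. The interaction with genotype came from the same fit and the spleen and pLN contrast from its own table of 8 libraries. A joint fit of all 20 libraries, added after the data had been seen, tested the tissue difference over 15340 genes, 14355 paired by symbol and 985 by an older symbol. Replicates are labelled biological replicates. WT depth was 9998478 to 15449158 counts, and intervals and limits cover counting error only. The scripts were tested on simulated data.

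Named genes were the members of the lists, the 15 called genes per direction with the largest fold change (at least 10 CPM in the higher group, groups not overlapping), the 10 with the largest TPM difference and the 5 with the strongest interaction with genotype; other names were added after their values had been seen, and some members are not reported here. The comparison and the gene lists were chosen with earlier results of these data known.

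Same-numbered WT Treg and CD4+Foxp3- libraries of mLNs deviated together from their group means over 11175 genes (r = 0.171, 0.174 and 0.183), and each correlated best with its own number. The numbers were therefore taken to pair the libraries on the evidence of the data. The block also covered DKO libraries and those of spleen and pLNs, where that evidence was less complete. DKO CD4+Foxp3- replicate 1 of mLNs correlated better with Treg replicate 3 (r = 0.16) than with Treg replicate 1 (0.11). In spleen and pLNs the WT values were 0.213 for the same number and -0.213 otherwise. With 2 replicates a group they are alike in size by construction. Alternatives were DESeq2 1.42.0, its size factors, filterByExpr, a replicate block, only the WT groups, glmTreat, limma 3.58.1 on log2(TPM + 0.1) and log2(TPM + 1), and leaving out each library.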

Additional observations from a re-analysis of the deposited data

Results flagged for a closer look

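The Treg minus CD4+Foxp3- difference of 8 genes was more positive in mLNs than in spleen and pLNs by the test of the difference itself (log2 scale): Plac8 by 3.87, Ccr9 by 3.84, Cxcr6 by 3.71, Ccr2 by 3.62, Lztfl1 by 1.38, S100a4 by 1.75, Ffar2 by 4.71 and Emp1 by 4.11. Tissue and experiment cannot be told apart in this result.

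The WT difference also depended on genotype in some genes. Of 16784 genes, 47 (0.28%) had an interaction at an adjusted p of at most 0.05 (edgeR's quasi-likelihood test), and 30 of these were among the 1687 genes called in WT mice. The count depended on the fit: it was 118 with the replicate block, 402 with DESeq2 and 9 to 462 with 1 library left out. H2-Aa, an MHC class II chain, had a DKO minus WT interaction of 4.04 and H2-Eb1 one of 3.50, the gap between Treg and CD4+Foxp3- cells being negative in WT mice. Sepn1 gave 2.63, Tagln2 0.98 and Odc1, an enzyme of polyamine synthesis, 0.86. In the other direction stood the Treg genes Nrp1 (-2.60), Il1rl1 (-3.54), Socs2 (-2.71) and Tgfbr1 (-1.26), together with Dnah7a (-5.94), Hopx (-1.61), Plac8 (-1.96), Inpp5f (-0.78) and Cyth3 (-0.77). These are differences of differences, so a change of either cell type in DKO mice can produce them.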

How the results depend on the processing

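Of 123 called genes named in the text, 90 kept their direction and their side of the threshold in every alternative run, and no direction reversed in the 1843 pairs of gene and alternative. The 1687 mLN calls became 2544 with only the WT groups and 695 with glmTreat, and 1149 to 1263 without 1 library. The 654 spleen and pLN calls became 1457 (DESeq2) and 2060 (edgeR) with only the WT groups, 379 with filterByExpr, 329 with glmTreat, 157 and 154 on log2(TPM + 0.1) and log2(TPM + 1), and 144 to 198 without 1 library. The 542 shared calls became 1123, 1480, 324, 248, 123 and 127 in the same order, and 133 to 474 without 1 library. The 47 interactions with genotype became 402 with DESeq2 and 9 to 462 without 1 library (9 without WT Treg replicate 2, 462 without DKO CD4+Foxp3- replicate 2). The 8 tissue differences, whose alternatives were chosen after seeing the data, became 28 with DESeq2, 5 with filterByExpr, 709 with only the WT groups and 0 to 2 without 1 library. Their causes were not tested. Where a group was left with 1 library, it was assumed to vary like the others.

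With the replicate block, pairing libraries by number, mLN calls were 1775, spleen and pLN calls 360, shared calls 321, interactions 118 and tissue differences 12. Among the 123 named calls the block ended those of Cdh5, Hif1a and Lyz2 and changed no other. Values of genes at a few reads per library, such as Il2, Areg and Il17a, carry a large counting error.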

Other observations

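Of the 8 genes whose cell type difference differed between tissues, 4 lie close together on chromosome 9, between 123587557 and 124028296 of NCBIM37: Ccr9, Lztfl1, Cxcr6 and Ccr2. This was noticed after their values had been seen. Lztfl1 lies within the annotated span of Ccr9, on the opposite strand. Other genes among them did not pass: Fyco1 gave 0.75, Xcr1 -0.44, Ccr1 0.07 and Ccr3 0.37, and Ccr1 and Ccr3 were called higher in Treg cells in both tables.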
